A study of Mus musculus with 6 samples.

Results

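Most of the 36 genes described here encode enzymes and carriers that oxidize fatty acids in mitochondria and peroxisomes, make ketone bodies, or control these genes. The list also holds acyl-CoA thioesterases (Acot1 to Acot4), Nudt7, which cleaves coenzyme A and its esters, and Pex11a, a protein of peroxisome division. All were taken as a fixed list by name, chosen with earlier results of these data known. All 36 were among the 27381 genes measured on the arrays. Whole livers came from C57BL/6J mice, described in the methods as wild-type males, that were put on a NASH diet at 10 weeks of age and kept on it for 32 weeks. Both groups ate this diet, in which palm oil supplied fat at 40% of the energy, fructose supplied 20%, and cholesterol was 2%. After 20 weeks of diet the mice received 1e+12 vector genomes of adeno-associated virus (AAV) into the peritoneum, and livers were taken 12 weeks later. The AAV-Glrx vector carried tagged mouse Glrx (glutaredoxin-1, which removes glutathione from protein thiols) behind the promoter of Serpina7, which is active in hepatocytes, and the AAV control vector had an empty cassette. No group on a normal diet or without virus was analysed here.

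Each group had 5 or 6 mice, whose liver RNA was combined into 3 pools, and each pool was run on 1 array, called AAV control 1 to 3 and AAV-Glrx 1 to 3. Neither the labels nor the methods say which mice went into which pool, so some pools may be of 1 mouse. The p-values therefore measure the spread between these pools. With 3 pools against 3, the smallest p that an exact permutation test can give is 0.1. The arrays hold 1 value per gene and array on a log2 scale, so a difference of 1 is a doubling, and values of different genes rest on different probes and were not set against each other. Each gene was tested with limma over all 27381 genes, and a gene passed at a Benjamini-Hochberg adjusted p under 0.1. In bulk liver, fewer cells of a type and less RNA per cell cannot be told apart.

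In liver, long-chain fatty acids are activated to acyl-CoA, pass the inner mitochondrial membrane as carnitine esters, and are shortened by repeated dehydrogenation, hydration, dehydrogenation and thiolysis. Peroxisomes shorten very-long-chain, branched and dicarboxylic acids by a parallel route with its own enzymes. The acetyl-CoA made in excess is turned into ketone bodies, and the nuclear receptor PPAR-alpha raises many of these genes in the fasted liver.

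The vector gene Glrx was read first as a check of the labels. It measured 6.11, 6.03 and 5.66 in AAV control 1 to 3 and 6.60, 7.77 and 7.24 in AAV-Glrx 1 to 3, so every AAV-Glrx pool was above every AAV control pool. The difference was 1.27 ± 0.27 (SE, n = 3 pools a group) on the log2 scale, or 2.41-fold, with an adjusted p of 0.847 (limma). The arrays correlated with each other across genes at a Pearson r of 0.987 to 0.991. Alb, the albumin gene that marks hepatocytes, measured 12.34 to 12.41 in the 6 pools. Of 14 hepatocyte markers listed, 12 were measured, and the log2 of their summed level was 14.81 to 14.84 in AAV control and 14.84 to 14.86 in AAV-Glrx.

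None of the 36 genes passed the test (adjusted p from 0.847 to 1.00, limma), and 0.00365% of all genes did, which is 1 gene. Fold changes were small: 24 of the 36 genes differed by less than 0.1 on the log2 scale and 34 by less than 0.3. Nudt7, which encodes a peroxisomal enzyme that cleaves coenzyme A and its esters, was the exception in size, with a log2 difference of 0.74. It was also the only one of the 36 genes whose groups did not overlap, where 10.9% of all genes did not, and the only one at an unadjusted p under 0.05 in limma. That makes 1 of 36 higher and 0 lower, beside 2.76% and 3.01% of all genes (5.77% in all). The SE of the difference ran from 0.0806 to 0.212 with a median of 0.110, close to the median of 0.113 over all genes. The 95% interval lay within 1.5-fold in either direction for 33 of the 36 genes, beside 87.8% of all genes. The intervals of Nudt7, Acot3 and Pex11a reached beyond 1.5-fold.

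**Figure D1:**
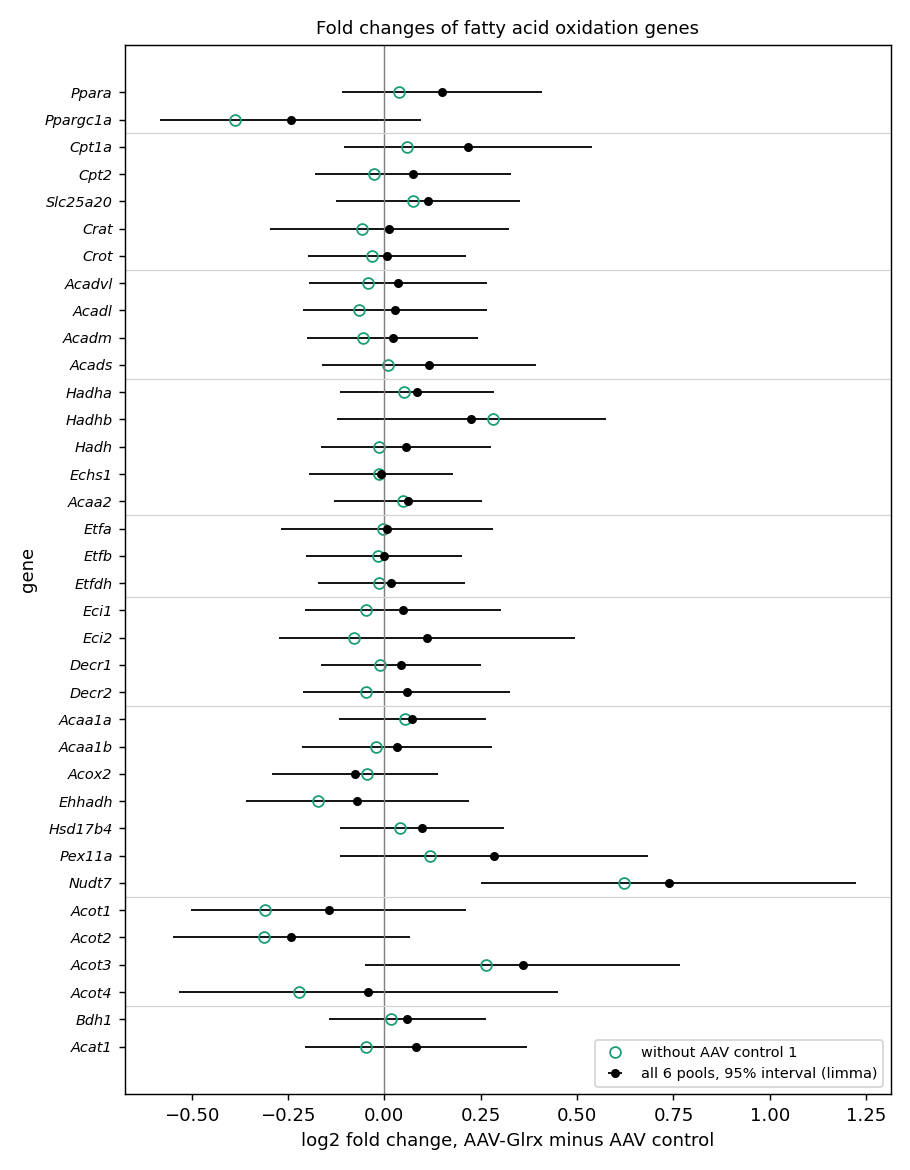
Fitted log2 fold change of AAV-Glrx over AAV control for each of the 36 genes (black points, all 6 pools) with its 95% interval from limma, and the same value without the pool AAV control 1 (open green circles). Only the interval of Nudt7 (0.25 to 1.22) lies off 0, and 15 genes move from above 0 to below it without that pool.

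Of the 36 genes, 28 had a higher mean in AAV-Glrx and 8 a lower one, so 77.8% were higher, beside 49.5% of all genes. The median log2 fold change was 0.05, beside -0.00122 over all genes. These counts turned on 1 control pool. AAV control 1 was the lowest of the 6 pools for 27 of the 36 genes (75%), and it was the lowest for 18.1% of all genes. It lay below both other control pools for 33 of the 36 genes, all but Hadhb, Acox2 and Etfa. The median distance of AAV control 1 from the mean of the other two control pools was -0.22 over the 36 genes, with a range of -0.57 to 0.17, and -0.00428 over all genes. Without this pool, 13 of the 36 genes had a higher mean in AAV-Glrx and 23 a lower one (36.1% higher, beside 49.5% of all genes), and the median log2 fold change was -0.02. At an unadjusted p under 0.05 (limma) there were then 1 higher, Nudt7, and 2 lower, Ppargc1a and Acot1, beside 2.42% and 3.25% of all genes. The 15 genes that turned sign all went from higher to lower.

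**Figure D2:**
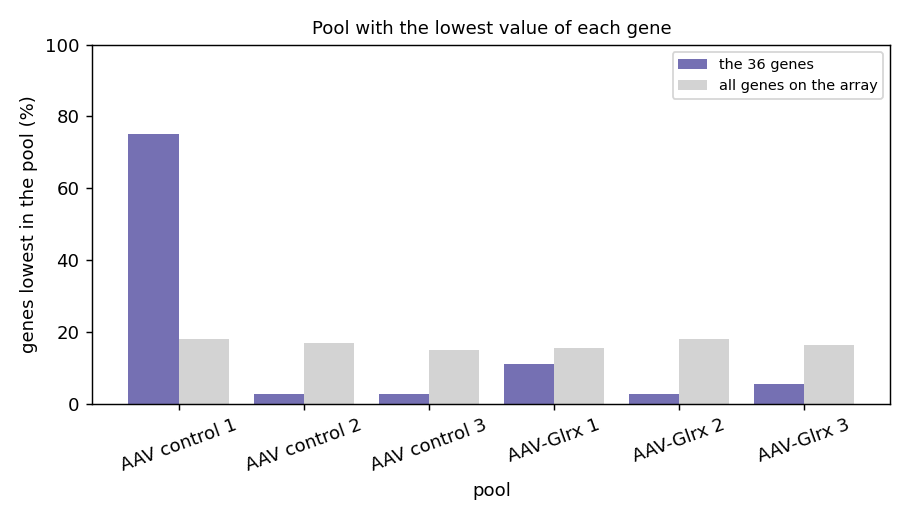
Percentage of genes that have their lowest value in each of the 6 pools, for the 36 fatty acid oxidation genes (purple bars) and for all 27381 genes (grey bars). AAV control 1 holds the lowest value of 75% of the 36 genes and of 18.1% of all genes.

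For the 36 genes the spread between pools was wider in AAV control, where AAV control 1 lay below both other pools for 33 of them. Within-group SDs of the 36 genes had a median of 0.165 in AAV control and 0.0834 in AAV-Glrx, while over all genes they were 0.126 and 0.124. The SD was the larger in AAV control for 25 of the 36 genes (69.4%, beside 50.9% of all genes). The highest pool was AAV-Glrx 2, for 14 of the 36 genes (38.9%, beside 16.6% of all genes). As a median over the 36 genes, AAV control 1 lay at -0.16 from each gene's mean over the 6 pools, and the other 5 pools lay between 0.01 and 0.07.

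**Figure D3:**
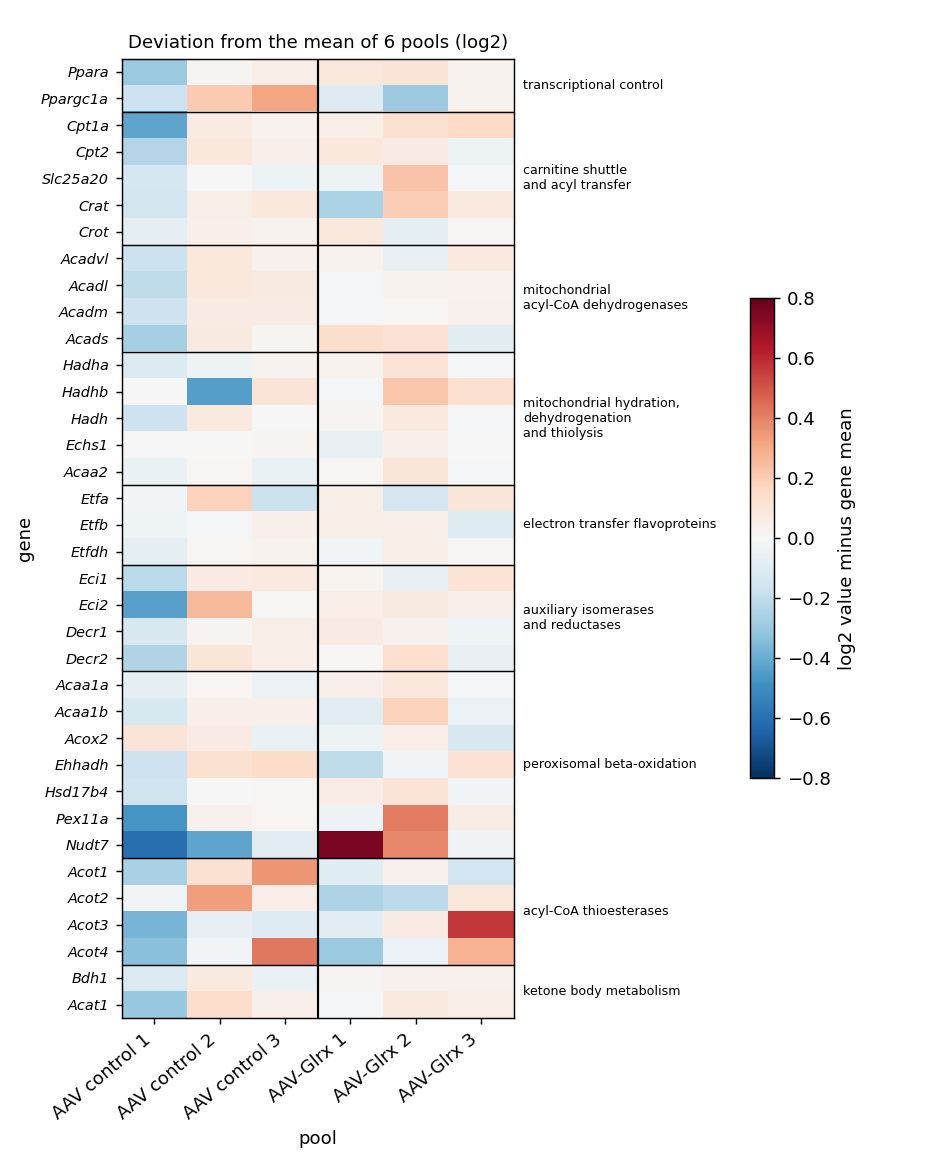
Log2 value of each of the 36 genes in each pool minus that gene's mean over the 6 pools, in blue below and red above the mean, with genes in rows by role and pools in columns. The column of AAV control 1 is blue for most genes (median -0.16), and Nudt7 has the widest range, from -0.60 to 0.75.

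Several other lists were read for the same pool. The 12 hepatocyte markers measured lay at a median of 0.02 from their gene means in AAV control 1, against -0.16 for the fatty acid oxidation genes. PPAR-alpha targets outside beta-oxidation were also low there, at -0.17, with 8 of 23 lowest in that pool (beside 18.1% of all genes). The 5 lists of other pathway genes lay between -0.11 and 0.04, and genes of the fasted and fed liver at 0.10. The Kupffer cell and macrophage markers lay at 0.29 in AAV control 1, with 6 of 9 measured markers highest in that pool (beside 17.6% of all genes). The log2 of their summed level was 10.02 to 10.47 in AAV control and 9.89 to 10.19 in AAV-Glrx. One of these 9 markers had a mean below the median of all genes. Core clock genes lay at -0.22 in AAV control 1, and 8 of 15 were lowest in it (beside 18.1% of all genes). The part of macrophage content, of clock time or of the makeup of this pool in its low fatty acid oxidation values was not tested.

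Both regulators on the list act at the head of the programme. Ppara encodes PPAR-alpha. It measured 8.13, 8.44 and 8.47 in AAV control 1 to 3 and 8.51, 8.53 and 8.45 in AAV-Glrx 1 to 3. The groups overlapped between AAV control 3 and AAV-Glrx 3, and the means were 8.35 ± 0.19 and 8.50 ± 0.04 (SD, n = 3 pools each). The log2 difference of 0.15 ± 0.11 (SE, interval -0.11 to 0.41, adjusted p 0.899 by limma) was 0.04 without AAV control 1.

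Ppargc1a encodes PGC-1alpha, a coactivator of PPAR-alpha and of other nuclear receptors that drives mitochondrial genes. It measured 5.79, 6.17 and 6.28 in AAV control 1 to 3 and 5.85, 5.67 and 5.99 in AAV-Glrx 1 to 3. AAV control 1 sat among the AAV-Glrx pools, and the other two control pools were above all of them. The means were 6.08 ± 0.25 and 5.84 ± 0.16 (SD, n = 3 pools each), and the log2 difference was -0.24 ± 0.15 (SE, interval -0.58 to 0.10, adjusted p 0.879 by limma). It was the largest of the 8 negative differences. Without AAV control 1 it was -0.39, with an unadjusted p of 0.0175 and an adjusted p of 0.856 (limma). Without AAV control 3 it was -0.14.

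The carnitine shuttle carries long-chain acyl groups into mitochondria, and Cpt1a encodes its rate-limiting enzyme in liver. Cpt1a measured 9.35, 9.84 and 9.80 in AAV control 1 to 3 and 9.82, 9.89 and 9.94 in AAV-Glrx 1 to 3. AAV control 1 stood apart below the other 5 pools, which spanned 9.80 to 9.94. The means were 9.67 ± 0.27 and 9.88 ± 0.06 (SD, n = 3 pools each), and the log2 difference was 0.22 ± 0.14 (SE, interval -0.11 to 0.54, adjusted p 0.88 by limma). Without AAV control 1 it was 0.06.

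The other carnitine genes showed smaller differences. Cpt2, which turns the carnitine ester back into acyl-CoA inside the mitochondrion, measured 7.57, 7.89 and 7.85 in AAV control 1 to 3 and 7.89, 7.87 and 7.77 in AAV-Glrx 1 to 3. Slc25a20, the carrier that exchanges carnitine and acylcarnitine, measured 7.18, 7.32 and 7.27 in the controls and 7.27, 7.54 and 7.30 with AAV-Glrx. Its highest value, in AAV-Glrx 2, stood apart from the other 5 pools. Crat and Crot, the acetyl and peroxisomal octanoyl transferases, each differed by 0.01 on the log2 scale. All 5 genes of this group had a higher mean in AAV-Glrx, and without AAV control 1 only Cpt1a and Slc25a20 did, at 0.06 and 0.07.

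The acyl-CoA dehydrogenases open each round of mitochondrial oxidation and differ in the chain length they take. Acadvl (very long), Acadl (long), Acadm (medium) and Acads (short chains) had log2 differences of 0.04, 0.03, 0.02 and 0.11. Each of these genes was lowest in AAV control 1. Acadm, for example, measured 9.20 in AAV control 1 and between 9.34 and 9.43 in the other 5 pools. Without AAV control 1 the differences were -0.04, -0.07, -0.06 and 0.01.

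The later steps are carried out by the trifunctional protein, of which Hadha and Hadhb encode the subunits, and by Echs1, Hadh and Acaa2 for shorter chains. Hadha measured 9.95, 10.02 and 10.09 in AAV control 1 to 3 and 10.09, 10.17 and 10.05 in AAV-Glrx 1 to 3, a log2 difference of 0.09 ± 0.09 (SE). Hadhb measured 5.25, 4.82 and 5.36 in AAV control 1 to 3 and 5.24, 5.48 and 5.39 in AAV-Glrx 1 to 3. It was the only one of the 36 genes that was lowest in AAV control 2, and its remaining 5 pools overlapped. The Hadhb means were 5.14 ± 0.29 and 5.37 ± 0.12 (SD, n = 3 pools each), a difference of 0.23 ± 0.15 (SE, interval -0.12 to 0.57, adjusted p 0.889 by limma), and 0.06 without AAV control 2. Echs1, the short-chain enoyl-CoA hydratase, Hadh, the hydroxyacyl-CoA dehydrogenase, and Acaa2, the mitochondrial thiolase, differed by -0.01, 0.06 and 0.06. Echs1 was among the steadiest genes, at 7.38 to 7.48 in all 6 pools.

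Hadha and Hadhb lie head to head, with annotated starts 273 bases apart, so their promoter windows share 228 bases although the lowest pool of each gene was a different one. The window of Hadhb is shown because its lower-case bases lie between the starts of both genes. It covers chr5:30155003-30155302 on the plus strand of GRCm38.p6 (RefSeq), 5′ to 3′, with capitals for the 50 bases from the annotated start of Hadhb.
Hadhb promoter: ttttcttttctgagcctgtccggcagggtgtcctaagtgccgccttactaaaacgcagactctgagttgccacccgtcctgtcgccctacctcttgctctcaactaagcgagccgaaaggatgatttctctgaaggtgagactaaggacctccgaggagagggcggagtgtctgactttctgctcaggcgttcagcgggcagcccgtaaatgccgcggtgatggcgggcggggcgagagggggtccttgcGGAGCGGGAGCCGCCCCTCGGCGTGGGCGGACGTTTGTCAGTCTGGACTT

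Electrons from the dehydrogenases pass through the electron transfer flavoprotein, a dimer of Etfa and Etfb products, to the ubiquinone oxidoreductase encoded by Etfdh. The 3 log2 differences were 0.01, -0.00 and 0.02, with intervals within -0.27 to 0.28. Etfa had the widest spread of the 3, from 7.51 in AAV control 3 to 7.87 in AAV control 2. Etfdh stayed between 9.23 and 9.35 in the 6 pools.

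Unsaturated fatty acids need isomerases and reductases before they can enter the spiral. Eci1 and Eci2 encode enoyl-CoA isomerases, and Decr1 and Decr2 the mitochondrial and the peroxisomal dienoyl-CoA reductase. The 4 log2 differences were 0.05, 0.11, 0.04 and 0.06, and all 4 were below 0 without AAV control 1 (-0.05, -0.08, -0.01 and -0.05). Eci2 had the lowest value of AAV control 1 relative to the other control pools of all 36 genes (-0.57). It measured 6.99, 7.69 and 7.44 in AAV control 1 to 3 and 7.48, 7.50 and 7.47 in AAV-Glrx 1 to 3, so the SD was 0.35 in AAV control and 0.02 in AAV-Glrx.

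Nudt7 belongs to the peroxisomal genes, and its product is thought to limit the peroxisomal pool of coenzyme A. It measured 7.53, 7.71 and 8.05 in AAV control 1 to 3 and 8.88, 8.52 and 8.10 in AAV-Glrx 1 to 3. Every AAV-Glrx pool lay above every control pool, and the gap between AAV control 3 and AAV-Glrx 3 was small. The means were 7.76 ± 0.26 and 8.50 ± 0.39 (SD, n = 3 pools each). The log2 difference was 0.74 ± 0.21 (SE, interval 0.25 to 1.22), or 1.67-fold, with an unadjusted p of 0.00819 and an adjusted p of 0.847 (limma). Leaving out each pool in turn gave log2 differences of 0.55 to 0.94, and 0.62 without AAV control 1, with adjusted p-values of 0.718 to 0.939 (limma). Since the groups do not overlap, no pool left out could turn the sign.

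The promoter window of Nudt7 is shown as that of the 1 gene whose groups did not overlap. It covers chr8:114133324-114133623 on the plus strand of GRCm38.p6 (RefSeq), 5′ to 3′, with capitals for the 50 bases from the annotated start.
Nudt7 promoter: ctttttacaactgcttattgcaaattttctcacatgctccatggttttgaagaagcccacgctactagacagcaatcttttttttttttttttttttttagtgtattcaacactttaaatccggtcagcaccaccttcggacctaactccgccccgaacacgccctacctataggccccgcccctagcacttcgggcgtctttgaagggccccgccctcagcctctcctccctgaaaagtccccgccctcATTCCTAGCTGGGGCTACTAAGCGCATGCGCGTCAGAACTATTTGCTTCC

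**Figure D4:**
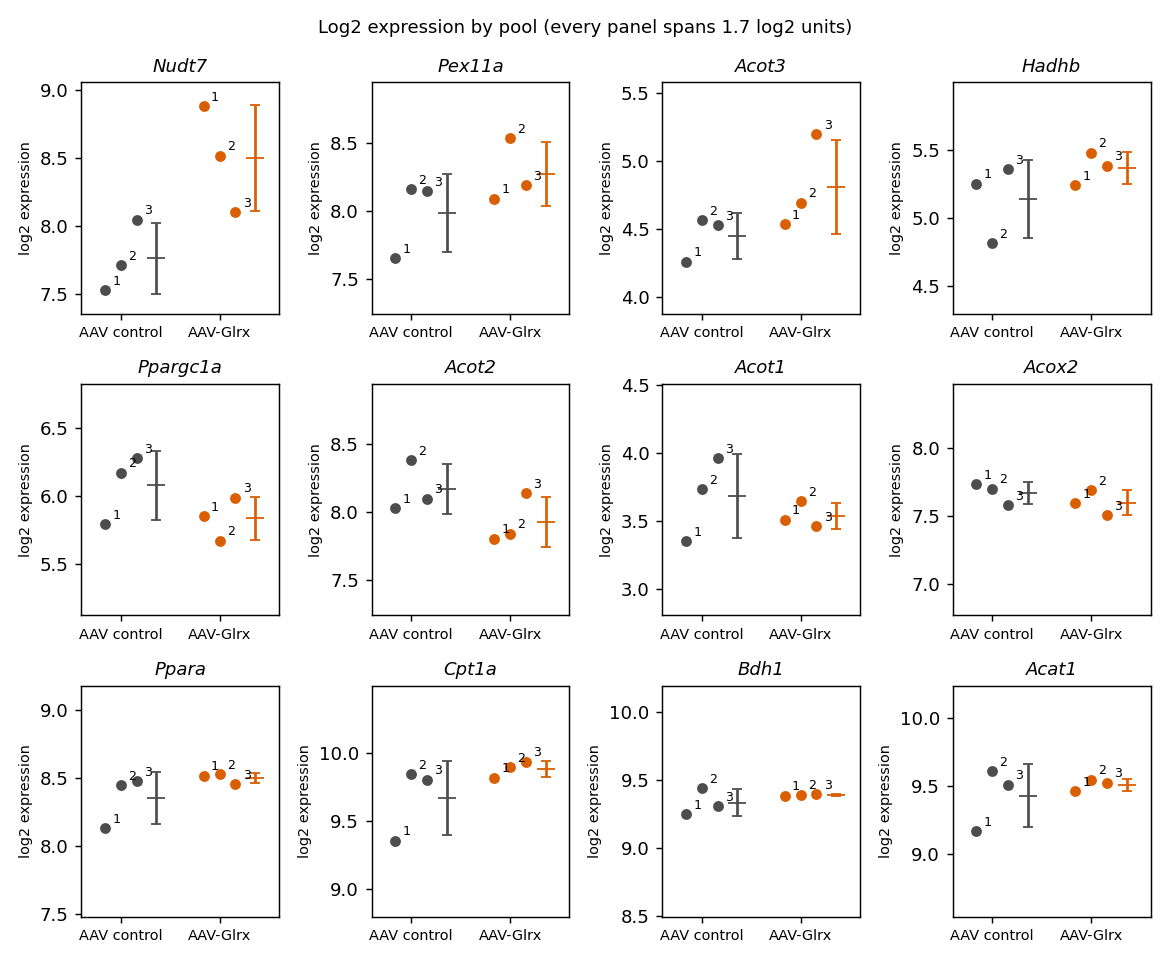
Log2 expression of 12 of the 36 genes in each pool (grey AAV control, orange AAV-Glrx, pools numbered), with the group mean and SD beside the points and every panel spanning the same log2 range. Nudt7 is the only panel whose groups do not overlap, and AAV control 1 is the lowest point of every panel but Hadhb, Ppargc1a, Acot2 and Acox2.

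The other peroxisomal genes showed no such separation. Pex11a, which encodes a membrane protein of peroxisome division and is a known PPAR-alpha target, measured 7.66, 8.16 and 8.15 in AAV control 1 to 3 and 8.09, 8.54 and 8.19 in AAV-Glrx 1 to 3. AAV control 1 was low and AAV-Glrx 2 high, and the remaining 4 pools lay within 8.09 to 8.19. The means were 7.99 ± 0.29 and 8.27 ± 0.23 (SD, n = 3 pools each), a log2 difference of 0.28 ± 0.17 (SE, interval -0.11 to 0.68, adjusted p 0.879 by limma), and 0.12 without AAV control 1. Acox2, the oxidase of branched-chain and bile acid intermediates, measured 7.73, 7.70 and 7.58 in AAV control 1 to 3 and 7.59, 7.69 and 7.50 in AAV-Glrx 1 to 3. It was the only one of the 36 genes that was highest in AAV control 1. Its means were 7.67 ± 0.08 and 7.59 ± 0.09 (SD, n = 3 pools each), a difference of -0.08 ± 0.09 (SE, interval -0.29 to 0.14, adjusted p 0.939 by limma).

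The 2 multifunctional enzymes of the peroxisome had differences of opposite sign. Ehhadh, the L-bifunctional enzyme, measured 8.55, 8.84 and 8.87 in AAV control 1 to 3 and 8.52, 8.70 and 8.84 in AAV-Glrx 1 to 3, a log2 difference of -0.07 ± 0.13 (SE). Hsd17b4, the D-bifunctional enzyme, had a difference of 0.10 ± 0.09 (SE). Both intervals held 0. Acaa1a and Acaa1b, paralogs that encode peroxisomal thiolases, differed by 0.07 and 0.03.

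The acyl-CoA thioesterases release the free fatty acid from its CoA ester, and in the mouse Acot1 acts in the cytosol, Acot2 in mitochondria and Acot3 and Acot4 in peroxisomes. These paralogs lie close in sequence, so their probes could share signal, which was not tested. Acot3 had the second highest difference of the 36 genes. It measured 4.26, 4.57 and 4.53 in AAV control 1 to 3 and 4.54, 4.70 and 5.20 in AAV-Glrx 1 to 3. The high pool was AAV-Glrx 3, and AAV-Glrx 1 lay between AAV control 2 and AAV control 3. The means were 4.45 ± 0.17 and 4.81 ± 0.34 (SD, n = 3 pools each), a log2 difference of 0.36 ± 0.18 (SE, interval -0.05 to 0.77, adjusted p 0.858 by limma). Without AAV-Glrx 3 it was 0.16.

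The other Acot genes had lower means in AAV-Glrx. Acot2 measured 8.03, 8.38 and 8.10 in AAV control 1 to 3 and 7.80, 7.84 and 8.14 in AAV-Glrx 1 to 3, where AAV-Glrx 3 sat among the controls. Its means were 8.17 ± 0.19 and 7.93 ± 0.18 (SD, n = 3 pools each), a log2 difference of -0.24 ± 0.13 (SE, interval -0.55 to 0.07, adjusted p 0.868 by limma). Leaving out each pool gave -0.35 to -0.14, the smallest without AAV control 2. Acot1 measured 3.35, 3.73 and 3.96 in AAV control 1 to 3 and 3.51, 3.64 and 3.46 in AAV-Glrx 1 to 3, and it was the 1 gene of the 36 with a mean below the median of all genes. The Acot1 means were 3.68 ± 0.31 and 3.54 ± 0.09 (SD, n = 3 pools each), a difference of -0.14 ± 0.15 (SE, interval -0.50 to 0.21, adjusted p 0.923 by limma). AAV control 1 was the lowest pool, and without it the difference was -0.31, with an unadjusted p of 0.0341 and an adjusted p of 0.865 (limma). Without AAV control 3 it was -0.00525. Acot4 spread widely in both groups, over 4.45 to 5.20 in AAV control and 4.49 to 5.06 in AAV-Glrx, and differed by -0.04 ± 0.21 (SE).

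For ketone bodies, Acat1 encodes the mitochondrial thiolase that joins acetyl-CoA units, and Bdh1 the enzyme that interconverts acetoacetate and beta-hydroxybutyrate. Bdh1 measured 9.25, 9.44 and 9.31 in AAV control 1 to 3 and 9.39, 9.40 and 9.40 in AAV-Glrx 1 to 3, so the AAV-Glrx pools fell inside the control range. Its means were 9.33 ± 0.10 and 9.39 ± 0.01 (SD, n = 3 pools each), a log2 difference of 0.06 ± 0.09 (SE, interval -0.14 to 0.26, adjusted p 0.952 by limma). Acat1 measured 9.17, 9.61 and 9.51 in AAV control 1 to 3 and 9.46, 9.54 and 9.52 in AAV-Glrx 1 to 3, again with all AAV-Glrx pools inside the control range. Its means were 9.43 ± 0.23 and 9.51 ± 0.04 (SD, n = 3 pools each), a difference of 0.08 ± 0.12 (SE, interval -0.21 to 0.37, adjusted p 0.956 by limma), and -0.05 without AAV control 1.

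Motifs of the receptors that control these genes were counted in promoter windows of 250 bases before to 50 bases after each annotated start (RefSeq, GRCm38.p6), on both strands. Of the 36 genes, 31 matched the promoter table. A gene was counted if any of its windows held the motif. The nuclear receptor half-site AGGTCA was found for 6 of the 31 genes (19.4%), beside 18.1% of the 27025 genes in the promoter table. AGGTCA directly preceded by TCA, the form that estrogen-related receptors bind, was found for 0 of 31 and for 0.466% of those 27025 genes. A direct repeat of AGGTCA with a spacer of 1 base, the form that PPAR-alpha binds with RXR, was searched with at most 2 mismatches among the 12 bases of the repeat. It was found for 5 of the 31 genes (16.1%) and for 4.4% of the 27025 genes, and it can overlap the single half-site. The 5 matches each had 2 mismatches and are printed to show how each departs from the repeat. The spacer is in lower case.
Acot4, chr12:84038366-84038378, minus strand: CGGCCAaAGGTCA
Acox2, chr14:8258818-8258830, minus strand: AGGACAgAGGTGA
Echs1, chr7:140116492-140116504, minus strand: AGGTCAcGGGTCC
Etfa, chr9:55512308-55512320, plus strand: AGGGCAaAGGTAA
Slc25a20, chr9:108662142-108662154, plus strand: AGGTGAaAGGTCG
The log2 differences of these 5 genes were -0.04, -0.08, -0.01, 0.01 and 0.11. The windows of Nudt7 and Hadhb hold no AGGTCA on either strand. A match describes the letters in a window and is no evidence of binding.

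Beyond the 36 genes, 99 others of the same pathway were listed by role, and 89 of them were measured. These lists were chosen with earlier results of these data known, so their counts beside all genes are description only. None of the 89 genes passed the test (limma, adjusted p under 0.1). At an unadjusted p under 0.05 there were 7 higher and 3 lower (11.2%, beside 5.77% of all genes). Higher means were found for 52 and lower means for 37, with a median log2 fold change of 0.04. The groups did not overlap for 13 genes that were higher (beside 5.51% of all genes) and 1 that was lower (5.38%). Without AAV control 1 the counts at an unadjusted p under 0.05 were 3 higher and 4 lower, beside 2.42% and 3.25% of all genes. A higher mean was then found for 49 of the 89 genes, beside 49.5% of all genes.

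Among 13 genes of fatty acid uptake and activation, 10 had a higher mean. Slc27a1, a fatty acid transport protein, differed by 0.26 ± 0.09 (SE, adjusted p 0.847 by limma), and Acsm1, a mitochondrial medium-chain acyl-CoA synthetase, by 0.32 ± 0.13 (adjusted p 0.85 by limma). Among 14 other beta-oxidation genes, 8 had a higher mean, and Slc22a5, the carnitine carrier of the plasma membrane, differed by 0.30 ± 0.12 (SE, adjusted p 0.847 by limma). All 3 were at an unadjusted p under 0.05 and had no overlap between groups. Leaving out AAV control 1 gave differences of 0.26 for Slc27a1, 0.20 for Acsm1 and 0.19 for Slc22a5, and Acsm1 and Slc22a5 were no longer at that p (0.120 and 0.113, limma).

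Of 29 other peroxisomal genes measured, 20 had a higher mean, 7 of them with no overlap between groups (beside 5.51% of all genes), and the median log2 fold change was 0.07, or 0.04 without AAV control 1. Hao1, the glycolate oxidase of liver peroxisomes, measured 7.50 to 7.64 in the control pools and 7.83, 8.005 and 7.87 in AAV-Glrx 1 to 3, a difference of 0.31 ± 0.09 (SE, adjusted p 0.847 by limma). Slc25a17, a peroxisomal carrier of coenzyme A and other cofactors, differed by 0.23 ± 0.09 (SE, adjusted p 0.847 by limma), and Acox3, an oxidase of branched chains, by 0.22 ± 0.09 (adjusted p 0.857 by limma). These 3 differences without AAV control 1 were 0.33, 0.27 and 0.16, and Acox3 was no longer at an unadjusted p under 0.05 (0.131, limma). So 3 genes of this list were higher at an unadjusted p under 0.05 with all pools (beside 2.76% of all genes) and 2 without AAV control 1 (beside 2.42%).

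Of 8 other ketone body genes, 3 had a higher mean and 5 a lower one (median -0.07, and 0.02 without AAV control 1). Of 25 other transcriptional regulators, 11 had a higher mean and 14 a lower one (median -0.04). At an unadjusted p under 0.05 (limma), 1 was higher and 3 were lower (16%, beside 5.77% of all genes). With AAV control 1 left out, 9 had a higher mean and 16 a lower one, with 0 higher and 4 lower at that p, beside 2.42% and 3.25% of all genes. Nrip1, a corepressor of nuclear receptors, differed by -0.21 ± 0.09 (SE, adjusted p 0.858 by limma), and Lpin2, a phosphatidate phosphatase of the lipin family, by -0.37 ± 0.16 (adjusted p 0.858 by limma). The REV-ERB receptors of the clock had differences of opposite sign, -0.24 ± 0.10 for Nr1d1 and 0.23 ± 0.09 for Nr1d2 (SE, adjusted p 0.858 for each by limma). Nrip1 and Nr1d2 were not at an unadjusted p under 0.05 when AAV control 1 was left out. Of 23 PPAR-alpha targets outside beta-oxidation, 11 had a higher mean and 12 a lower one, with a median of -0.01 and a range of -0.81 to 0.72. At an unadjusted p under 0.05 (limma), 2 were lower and 0 higher, beside 3.01% and 2.76% of all genes. When AAV control 1 was left out, 9 of these targets had a higher mean and 14 a lower one. At that p, 0 were then higher and 4 lower, beside 2.42% and 3.25% of all genes.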

How the data were processed

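The deposited files hold 1 log2 value per gene and array from Affymetrix Mouse Gene 2.0 ST arrays, which the authors normalized with the Robust Multiarray Average and custom gene-level probe definitions. Per the submitters' processing notes this was done in R 3.6.0 with affy 1.61.0. The probes' genome build was not given in the sources used here. Quantile normalization in that method hides a shift of most genes in 1 direction, and fold changes of dim genes are understated. Values ran from 0.807 to 12.9, with 3 arrays per group, and their number limits the precision.

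All 27381 genes, of which 26794 have a symbol, were fitted with lmFit and eBayes (limma 3.58.1, R 4.3.3), with no covariates or filter, 7.79 degrees of freedom and Benjamini-Hochberg adjustment. The 36 genes and the 15 other lists were chosen with earlier results of these data known. All 6 values were to be given for genes at an unadjusted p under 0.05 or without overlap, the 4 largest differences in each direction, and Ppara, Ppargc1a, Cpt1a, Bdh1 and Acat1. Of other pathway lists, genes at an unadjusted p under 0.05 were named. A few more values were added after they were seen. Same-numbered pools did not deviate together (r of -0.171 to 0.02), so the numbers were not taken as pairs. Alternatives were an intensity trend, a robust prior, centred arrays, a further quantile step, brighter genes only, array weights, a replicate block and leaving out each array. Those for the other lists were added after seeing the data. The steps were tested on simulated data. A planned comparison of paralog proteins was not run.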

Additional observations from a re-analysis of the deposited data

How the results depend on the processing

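None of the 36 genes passed under any of the 13 alternatives (lowest adjusted p 0.673, limma), and 431 of 467 differences kept their sign. The intensity trend, robust prior, replicate block and brighter genes only leave each fitted difference unchanged, so no sign could turn there. In the fits that left out 1 array, 187 of 216 differences kept their sign, and 21 of 36 did without AAV control 1. Leaving out each array gave 1 to 2 genes higher at an unadjusted p under 0.05 (2 without AAV-Glrx 1, with Acot3 beside Nudt7), 0 to 2 lower (2 without AAV control 1, Ppargc1a and Acot1, and 1 without AAV-Glrx 3, Acot2), 6 to 23 with a lower mean (23 without AAV control 1), and a median log2 fold change of -0.02 to 0.09. The other pathway genes with a higher mean numbered 47 to 58. Signs turned for 19 genes, with log2 fold changes over these fits of Cpt2 -0.0268 to 0.134, Crat -0.0819 to 0.142, Crot -0.0315 to 0.0488, Acadvl -0.0415 to 0.0873, Acadl -0.0662 to 0.0778, Acadm -0.0553 to 0.0609, Hadh -0.0133 to 0.110, Etfa -0.0781 to 0.101, Etfdh -0.0132 to 0.0366, Eci1 -0.048 to 0.101, Eci2 -0.0796 to 0.268, Decr1 -0.0114 to 0.0774, Decr2 -0.0467 to 0.121, Acaa1b -0.0522 to 0.087, Acat1 -0.0488 to 0.171, Echs1 -0.0321 to 0.0187, Etfb -0.0286 to 0.0516, Acot4 -0.221 to 0.158 and Ehhadh -0.172 to 0.0127. With the replicate number as a block, 2 genes (Nudt7 and Acot3) were higher at an unadjusted p under 0.05 (limma). Each number occurs once per group, so the block could not change a difference or its sign. Centred arrays gave Echs1 0.00832 and Etfb 0.0157, a further quantile step gave Crot -0.0118, Etfa -0.00235 and Etfdh -0.00276, and array weights gave Crat -0.0208 and Etfb 0.000889. Acot1 was left out of the fit of brighter genes. The arrays carry no read depth, and with 3 pools a group the adjusted p of Nudt7 stayed above the threshold.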

Other observations

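Genes of the fasted and fed liver were read on a list apart from fatty acid oxidation, also chosen with earlier results of these data known. Of 14 measured, 3 had a higher and 11 a lower mean in AAV-Glrx, with a median log2 fold change of -0.25, or -0.28 without AAV control 1. None passed the test (limma), and at an unadjusted p under 0.05 there were 1 higher and 4 lower (beside 2.76% and 3.01% of all genes), or 0 and 4 without AAV control 1 (beside 2.42% and 3.25%). The following genes of the list were named after their values were seen. Tat, which encodes the tyrosine aminotransferase that glucocorticoids and glucagon raise, measured 11.31, 10.98 and 11.02 in AAV control 1 to 3 and 10.66, 10.75 and 10.49 in AAV-Glrx 1 to 3, a log2 difference of -0.47 ± 0.12 (SE, n = 3 pools a group, adjusted p 0.847 by limma). Pdk4, the pyruvate dehydrogenase kinase of fasting, differed by -0.38 ± 0.13 (SE, adjusted p 0.847 by limma), and Igfbp1, an insulin-repressed binding protein, by -0.43 ± 0.17 (adjusted p 0.85 by limma). The 1 higher gene was Srebf1, which encodes the SREBP-1 regulator of fat synthesis, at 0.25 ± 0.11 (SE, adjusted p 0.858 by limma). Pdk4 and Srebf1 were not at an unadjusted p under 0.05 when AAV control 1 was left out.

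Of 15 core clock genes measured, 10 had a higher and 5 a lower mean, with a median of 0.23, or 0.12 without AAV control 1. Their differences went in both directions, from -0.59 to 0.60. At an unadjusted p under 0.05 (limma), 2 were higher and 2 lower, beside 2.76% and 3.01% of all genes. The groups did not overlap for 3 higher and 3 lower genes, beside 5.51% and 5.38% of all genes. Among cell markers, 8 of 9 for B and T cells had a lower mean (median -0.22, 4 of the 9 with a mean below the median of all genes), and 8 of 9 for Kupffer cells and macrophages did (median -0.08, or -0.01 without AAV control 1). The medians were 0.01 for hepatocytes, 0.02 for stellate cells and fibroblasts, -0.05 for sinusoidal endothelial cells, -0.00 for cholangiocytes and 0.04 for adipocytes.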
